A study of Mus musculus with 7 samples.

Results

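Fos binding was examined at 8 mouse genes of the amyloid and tau pathways and of Alzheimer disease risk: App, Mapt, Bace1, Psen2, Apoe, Adam10, Clu and Bin1. They are 8 of the 21900 protein-coding genes of the RefSeq annotation of GRCm38.p6. Every peak with at least 1 base within 10 kb of the span of a gene was assigned to it. The peaks come from chromatin immunoprecipitation followed by sequencing (ChIP-seq) of hippocampus with a monoclonal antibody against Fos, with 1 peak list per library. All mice were wild-type C57BL/6J of 2 months. The 3 control libraries came from mice given saline, named as PBS in the design text. The 3 kainic acid libraries came from mice given 2 injections of 10 mg/kg into the peritoneum 30 min apart, which reached seizures of level 4 and were killed 1 hour after the first injection. The number of animals behind a library is not given in the sources used here, and the spread between libraries may therefore be in part technical. An input library belongs to the series, and no peak list of it was used here.

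As background, App encodes the amyloid precursor protein. Adam10 encodes the main alpha-secretase of neurons, which cuts the precursor within the amyloid sequence, and Bace1 encodes the beta-secretase, which starts the release of amyloid beta. Psen2 encodes a catalytic subunit of gamma-secretase, which makes the final cut. Mapt encodes tau, the microtubule-binding protein of neurofibrillary tangles. Apoe and Clu encode secreted lipid-carrying proteins made largely by astrocytes, and Bin1 encodes a membrane-bending protein of endocytosis. Fos pairs with Jun proteins to form AP-1, which is made after strong neuronal activity and binds promoters and distal elements.

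Within 10 kb of the 8 genes lay 11, 50 and 22 peaks in kainic acid replicates 1, 2 and 3, and 0, 4 and 0 peaks in saline replicates 1, 2 and 3. Every kainic acid list held more peaks there than any saline list. App alone accounted for 48 of the 83 kainic acid peaks. The saline peaks lay at Mapt (3) and Bin1 (1). On the scale of log10(number of peaks + 1), kainic acid libraries averaged 1.38 ± 0.315 (SD, n = 3), saline libraries averaged 0.233 ± 0.404 (SD, n = 3), and the groups were 1.15 apart. An exact permutation test, two-sided and run over the 20 possible assignments, returned p = 0.1, and groups of 3 cannot give a smaller one. Fewer cells with Fos at a site and less Fos per cell cannot be told apart in tissue.

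The lists themselves differed in length in the same direction. The kainic acid lists held 15009, 63197 and 29650 peaks and the saline lists 7, 3277 and 2. The share of a list that fell near the 8 genes was 0.0733%, 0.0791% and 0.0742% in kainic acid replicates 1, 2 and 3, a mean of 0.0755% ± 0.00314 (SD, n = 3). In saline replicate 2 it was 0.122%, from only 4 peaks. The share was thus alike in the 3 kainic acid libraries and was not lower in the saline library with a list long enough to give one. A missing peak means that no peak was called, which is not the same as no binding, and with 7 and 2 peaks in all, saline replicates 1 and 3 say nothing about single genes. A peak was near 4, 8 and 5 of the 8 genes in kainic acid replicates 1, 2 and 3, against 26.4%, 60.2% and 40.9% of all protein-coding genes. It was near 2 of the 8 in saline replicate 2 and 0 of the 8 in saline replicates 1 and 3, against 17.0%, 0.0137% and 0.00% of all protein-coding genes.

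**Figure D1:**
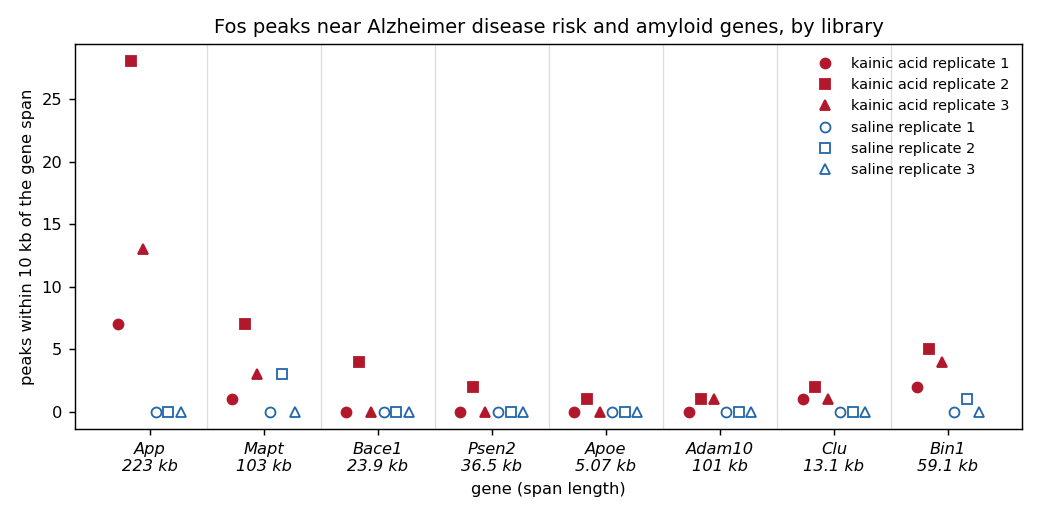
Number of Fos peaks within 10 kb of each gene (vertical axis) in each of the 6 libraries, with genes and their span in kb on the horizontal axis. App carried 7, 28 and 13 peaks in the kainic acid lists and 0 in each saline list, and saline replicate 2 had peaks at Mapt and Bin1 only.

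Peaks of all 6 lists that overlapped by at least 1 bp were merged into regions. Near the 8 genes, 51 regions had a kainic acid peak. All 3 of these libraries shared 9 of them, 11 were shared by a pair of libraries, and 31 belonged to a single library. Of the 31 single-list regions, 28 came from replicate 2, the longest list, 3 from replicate 3 and 0 from replicate 1. The 20 shared regions made up 39.2% of the 51, and across the whole series the share was 40.3%. In all 3 lists were 45.0% of the 20, against 44.4% across the series. Replicate support near these genes was therefore close to that of all regions. Each of the 20 regions had a peak of replicate 2, 19 of them had a peak of replicate 3, and 10 had a peak of replicate 1. Without replicate 2 the number of shared regions was 9, and without replicate 3 it was 10.

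All 20 shared regions touched a gene span, and the flanks made up 22.1% of the windows searched. App, the longest gene, held 12 of the 20, and flanks are a smaller part of a long gene's window. The share of all regions near genes that touch a span was not computed, so this count is a description only. A saline peak lay in 2 of the 20, 1 at Mapt and 1 at Bin1, both from saline replicate 2. Across the series 2.01% of such regions had a saline peak. Within each list, peaks were ranked by the authors' fold, which sets a peak against its local background as a ratio, and ranks were expressed as percentiles in which 0 is the highest fold of the list. The median of the mean percentile was 47.4 for the 20 regions and 42.2 for all 26862 regions in at least 2 lists. Values near the 8 genes ran from 1.15 at Bin1 to 79.7 at App, so the set held both very strong and weak sites.

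Of the 8 genes, 5 (62.5%) had a region in at least 2 kainic acid lists, namely App, Mapt, Adam10, Clu and Bin1. Among all protein-coding genes 40.0% had one. The counting interval of the share among the 8 genes (95% Clopper-Pearson) ran from 24.5% to 91.5%. It shows how little a count over 8 genes fixes and is no test against the share of all genes. The 8 genes were listed with earlier results of these data known, so the share is a description. Gene length moved with this measure. The 4 genes longer than 50 kb (App, Mapt, Adam10 and Bin1) all had a region, and 70.1% of protein-coding genes of that length did. Of the 4 shorter genes only Clu had one, and 31.2% of the shorter protein-coding genes did. A region in all 3 lists was found at 4 of the 8 genes, App, Mapt, Clu and Bin1, against 23.9% of all genes. Every kainic acid list held more peaks than every saline list at 3 of the 8 genes, App, Clu and Bin1, against 20.7% of all genes.

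**Figure D2:**
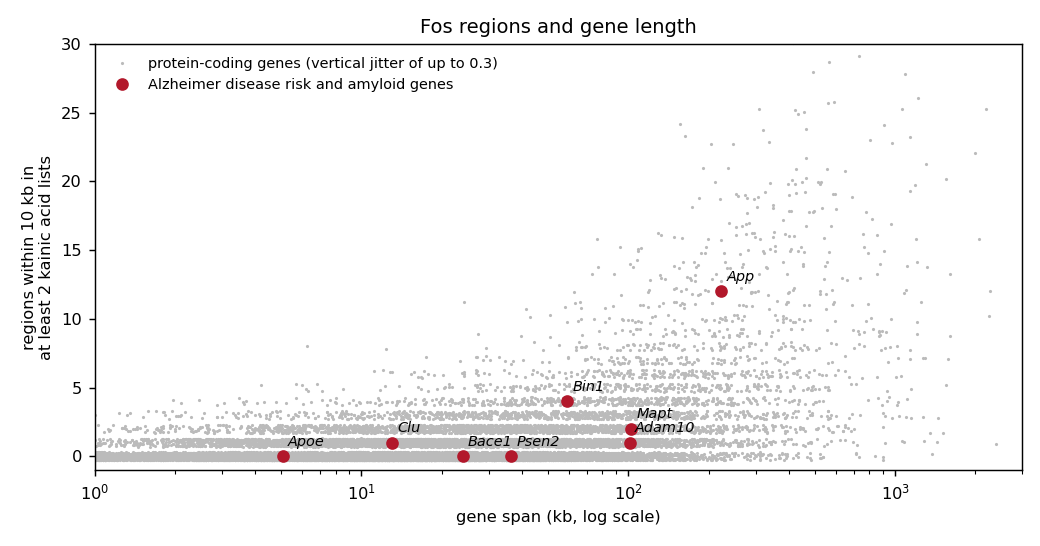
Shared regions per gene, each called in at least 2 kainic acid libraries, within 10 kb (vertical axis) against gene span in kb (log scale), with all protein-coding genes in grey and the 8 genes in red. App with 12 regions and Bin1 with 4 lie high among genes of their length, while Bace1, Psen2 and Apoe lie at 0; 31 genes with more than 30 regions and 1584 genes shorter than 1 kb fall outside the axes.

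Per length, the windows of the 8 genes (724 kb in all) held 15.2, 69.0 and 30.4 peaks per Mb in kainic acid replicates 1, 2 and 3. The windows of all protein-coding genes held 8.46, 37.3 and 17.2 peaks per Mb. The density near the 8 genes was thus between 1.77 and 1.85 times that of all genes in the 3 libraries. Most of this came from App. Without App the other 7 genes held 8.31, 45.7 and 18.7 peaks per Mb. That was close to the density of all genes in replicates 1 and 3 and above it in replicate 2.

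App, the substrate of the secretases, spans 223 kb on chromosome 16 (84952666 to 85175255, minus strand). It carried 7, 28 and 13 peaks in kainic acid replicates 1, 2 and 3 and 0 in each of the 3 saline lists. The peaks covered 2816, 14846 and 7490 bp. All 48 peaks had their region inside the gene span, and none lay only in the flanks. They formed 29 regions, 12 of them in at least 2 lists and 5 in all 3. Of protein-coding genes, 98.9% had fewer such regions than App, while 3.89% were longer. Per 100 kb of its window App had 4.95 shared regions, more than 92.1% of protein-coding genes.

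Shared regions of App lay mostly toward its start. Of the 12 shared regions, 7 had their centre within 50 kb of the start site listed for App and 9 within 100 kb. The annotation used here gives no exons, so these positions are not assigned to introns or exons. The strongest region was at the other end of the gene, 210 kb downstream of the start (chromosome 16, 84963388 to 84964615). Its fold was 5.56, 8.79 and 7.27 in kainic acid replicates 1, 2 and 3, at percentiles 21.6, 8.13 and 6.96. The summits of these peaks, at 84964154, 84963749 and 84964105, lay up to 405 bp apart, the widest spread of the 20 shared regions. The peaks overlap, but the summit of replicate 2 stands apart from the other summits. Next came a region 36.2 kb downstream of the start (85136937 to 85138058), with folds of 5.27, 8.12 and 4.82 at percentiles 27.0, 10.2 and 28.6. A neighbour 29.8 kb downstream (85143191 to 85144537) had folds of 4.29, 6.87 and 4.79, at percentiles 53.9, 16.5 and 28.8. All 3 sites lay in the upper part of the lists of replicates 2 and 3, and the percentile in replicate 1 ran from 21.6 to 53.9.

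The other 2 App regions in all 3 lists were weaker. The one 21.1 kb downstream (85152201 to 85152924) had folds of 4.77, 5.38 and 3.73. The one 69.9 kb downstream (85103618 to 85104079) had folds of 2.63, 3.66 and 3.78, at percentiles 99.0, 76.1 and 57.1, and was thus among the lowest-ranked peaks of replicate 1. Of the 7 App regions in exactly 2 lists, 1 was shared by replicates 1 and 2 and 6 by replicates 2 and 3. App counts moved with the libraries used: 11 shared regions without replicate 1, 5 without replicate 2 and 6 without replicate 3.

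**Figure D3:**
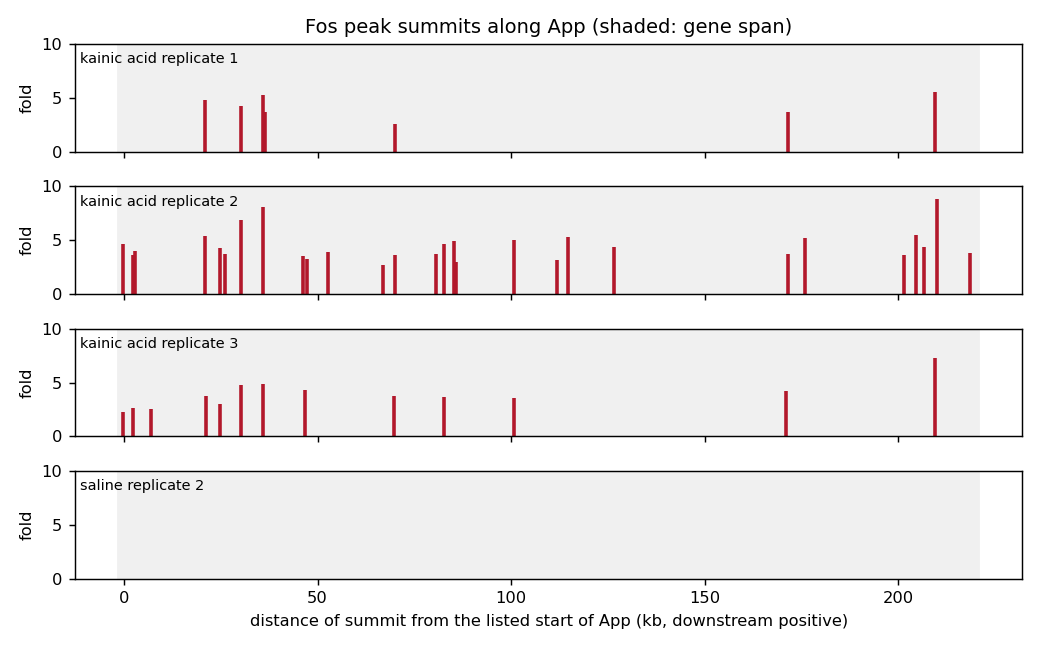
Position of each peak summit along App, in kb from the listed start with downstream positive, and its fold (vertical axis), in the 3 kainic acid lists and saline replicate 2. The regions centred at 21.1, 29.8, 36.2, 69.9 and 210 kb have bars, drawn at the summits, in all 3 kainic acid lists. Neither saline replicate 2 nor the other saline lists had a peak there.

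The promoter of App was itself at a shared region. The region from 85173559 to 85174323 covers the 250 bases before the listed start site (85173707, which is 1.55 kb inside the span's end). It had a peak in kainic acid replicates 2 and 3 and in no other list. Because this peak bears on a promoter, the 250 bases are printed below 5′ to 3′ on the gene's strand, from RefSeq on GRCm38.p6 (chr16:85173708-85173957, minus strand). The corresponding bases of Adam10 (chr9:70678732-70678981, plus strand) are printed for comparison, since the Adam10 peaks described further on lie just downstream of its start. Capitals mark GC boxes (GGGCGG or its reverse complement), a promoter element bound by Sp1.
App promoter: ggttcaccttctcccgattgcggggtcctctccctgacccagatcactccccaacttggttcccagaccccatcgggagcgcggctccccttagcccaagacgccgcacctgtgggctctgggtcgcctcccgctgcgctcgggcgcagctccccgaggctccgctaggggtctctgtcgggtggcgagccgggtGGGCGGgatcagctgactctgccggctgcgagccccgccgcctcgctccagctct
Adam10 promoter: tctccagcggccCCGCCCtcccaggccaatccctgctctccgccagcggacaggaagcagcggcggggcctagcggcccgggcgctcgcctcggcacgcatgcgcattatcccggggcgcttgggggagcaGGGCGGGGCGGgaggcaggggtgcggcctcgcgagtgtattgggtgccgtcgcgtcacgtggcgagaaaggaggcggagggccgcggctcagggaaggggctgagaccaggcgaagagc

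The AP-1 consensus TGANTCA and the cyclic AMP response element TGACGTCA, both read on either strand, occurred in 6.75% and 1.55% of the 32851 promoter windows of the RefSeq table. Neither occurred in the windows of App or Adam10, nor in those listed for Psen2 and Apoe. GC boxes occurred in 32.7% of all windows. App had 1 and Adam10 had 3, of which 2 share a base. The App window was 70.8% G and C, above 91.7% of all windows, and the Adam10 window was 74.0%, above 95.1%. These are matches of letters within the windows and say nothing of binding elsewhere in the peaks, whose sequence was not used here.

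The App promoter peak had many reads over a high local background. The pileup, the number of reads over the summit, was solved from the deposited fold and p-value as 66 in kainic acid replicate 2 (95% exact Poisson interval 51.0 to 84.0) and 40 in replicate 3 (28.6 to 54.5). Such intervals cover counting error only. In the same libraries the pileups were 38 and 37 at the App region of highest fold and 49 and 45 at the region 36.2 kb downstream, so in replicate 3 the latter exceeded the promoter. The fold at the promoter was 4.69 and 2.27, at percentiles 42.2 and 99.6. The local background solved there was 13.3 and 17.1 reads. At the other shared regions of App it ran from 2.90 to 6.64 reads in replicate 2 and from 4.10 to 8.54 reads in replicate 3.

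The secretase genes had few peaks. Adam10, the alpha-secretase, spans 101 kb on chromosome 9 (70678944 to 70780229) and had 0, 1 and 1 peaks in kainic acid replicates 1, 2 and 3 and 0 in each saline list. Both peaks formed a single region at 70679647 to 70680119, with its centre 0.901 kb downstream of the listed start. Its fold was 4.08 in replicate 2 and 3.22 in replicate 3, at percentiles 59.0 and 82.5. The rest of the gene had no peak in any list. App and Adam10 thus differed in where their peaks lay, along the gene in one and at the start alone in the other.

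Bace1, the beta-secretase, spans 23.9 kb on chromosome 9 (45838545 to 45862484) and had 4 peaks in kainic acid replicate 2 and 0 in the other 5 lists. Its strongest peak (45845436 to 45845970) had a fold of 6.23 at percentile 20.8, with a pileup of 23 reads (14.6 to 34.5). One of the 4 peaks lay 9425 bp outside Bace1 and 112 bp from the end of Cep164. Psen2, of the gamma-secretase, spans 36.5 kb on chromosome 1 (180227004 to 180263467) and had 2 peaks in kainic acid replicate 2 and 0 elsewhere. The stronger (180249791 to 180250564) had a fold of 7.57 at percentile 12.6, with a pileup of 38 reads (26.9 to 52.2). The other lay 4 bp outside the span of Psen2, inside the non-coding gene Gm31728. Without a second library these 6 peaks have no replicate support, although the first Psen2 peak ranked above most of the shared App regions in the same list.

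At Mapt, the tau gene, saline and kainic acid libraries overlapped. Mapt spans 103 kb on chromosome 11 (104229409 to 104332090) and had 1, 7 and 3 peaks in kainic acid replicates 1, 2 and 3. It had 0, 3 and 0 peaks in saline replicates 1, 2 and 3, so saline replicate 2 held more peaks than kainic acid replicate 1. The region in all 3 kainic acid lists (104278027 to 104278690, 48.9 kb from the lower end of the span) had folds of 4.15, 9.02 and 5.75, at percentiles 58.5, 7.50 and 16.5, and no saline peak. A second region, 2.91 kb from the same end (104231932 to 104232701), had folds of 4.64 and 3.41 in kainic acid replicates 2 and 3, at percentiles 43.3 and 74.2. It also had a peak in saline replicate 2, with a fold of 5.31 at percentile 8.16 and a pileup of 21 reads (13.0 to 32.1). Percentiles from lists of different lengths show no change between groups. The other 2 saline peaks at Mapt (starting at 104299319 and 104313976) had folds of 4.00 and 3.92 and lay at no kainic acid peak.

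The lipid carriers differed from each other. Clu, on chromosome 14 (65968483 to 65981548, 13.1 kb), had 1, 2 and 1 peaks in kainic acid replicates 1, 2 and 3 and 0 in each saline list. They formed 1 region, 65967875 to 65969431, which spans the lower end of the gene. Its folds were 3.75, 9.56 and 4.48, at percentiles 74.8, 6.15 and 36.2, and its pileups were 29, 80 and 46 reads. Taking the peak of highest fold in each list, the summits lay within 92 bp of each other. Clu was counted under every alternative tried, including a stricter −log10 q. Apoe, on chromosome 7 (19696244 to 19701310, 5.07 kb), had 1 peak in kainic acid replicate 2 and 0 in the other 5 lists. That peak (19694600 to 19694834) lay 1410 bp outside Apoe, on the side of Apoc1 and 1941 bp from it. It had a fold of 4.05 at percentile 61.3 and a pileup of 14 reads (7.65 to 23.5). No list had a peak in the span of Apoe itself or at any of its 3 listed promoter windows.

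The strongest site of the set lay inside Bin1, on chromosome 18 (32376618 to 32435740, 59.1 kb). Bin1 had 2, 5 and 4 peaks in kainic acid replicates 1, 2 and 3 and 0, 1 and 0 in saline replicates 1, 2 and 3, so the groups did not overlap. Its strongest region, 32410299 to 32411210, had folds of 9.31, 20.8 and 12.4. These held rank 386 of 15009, rank 175 of 63197 and rank 185 of 29650, which are percentiles 2.57, 0.276 and 0.622. The pileups were 42 (30.3 to 56.8), 89 (71.5 to 110) and 62 (47.5 to 79.5) reads over a local background of 3.62, 3.32 and 4.10. The 3 summits lay within 53 bp of each other, and no saline list had a peak there.

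Bin1 had 3 further shared regions. The one at 32395860 to 32396508 was in all 3 lists, with folds of 4.08, 9.42 and 7.55 at percentiles 61.6, 6.56 and 5.95. The region at 32418491 to 32419024 had folds of 6.02 and 3.73 in replicates 2 and 3. The region at 32414503 to 32414932 had folds of 5.67 and 4.10 in the same libraries and also a peak in saline replicate 2, with a fold of 4.48 at percentile 34.8 and a pileup of 15 reads (8.40 to 24.7). It is the next shared region above the strongest one, so a saline peak and the strongest kainic acid site are neighbours in the same gene. Per 100 kb of its window Bin1 had 5.06 shared regions, more than 92.4% of protein-coding genes and about as many as App.

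**Figure D4:**
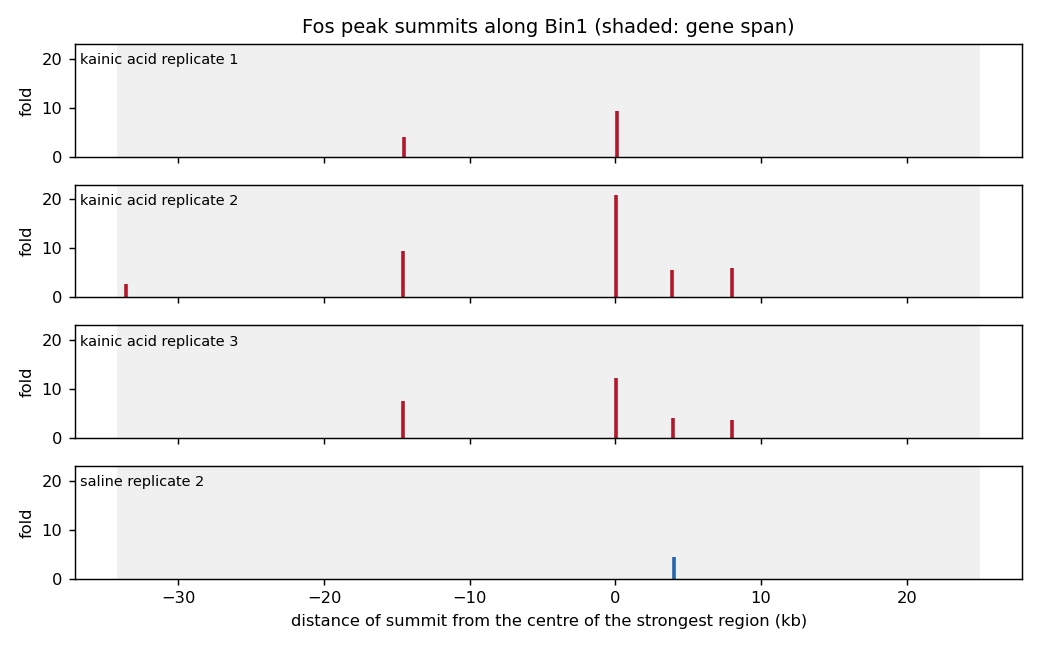
Position of each peak summit along Bin1, in kb from the centre of its strongest region, and its fold (vertical axis), in the 3 kainic acid lists and saline replicate 2. The site at 0 has folds of 9.31, 20.8 and 12.4 with kainic acid, and the only saline peak, with a fold of 4.48, is at a neighbouring site.

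Across the 5 genes with shared regions, the order of the best site by mean percentile was Bin1 (1.15), App (12.2), Mapt (27.5), Clu (39.1) and Adam10 (70.8). The spread between libraries was wide, and a percentile depends on the length of its list. At App the 3 percentiles of the best site ran from 6.96 to 21.6, at Mapt from 7.50 to 58.5 and at Clu from 6.15 to 74.8, so these 3 neighbours in the order overlap. Bin1, from 0.276 to 2.57, did not overlap with any of them. With kainic acid lists of equal length, the SD of the 3 percentiles fell at Mapt (27.2 to 15.3), Clu (34.4 to 27.4) and Bin1 (1.23 to 0.791). At App it rose, from 8.12 to 10.3.

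**Figure D5:**
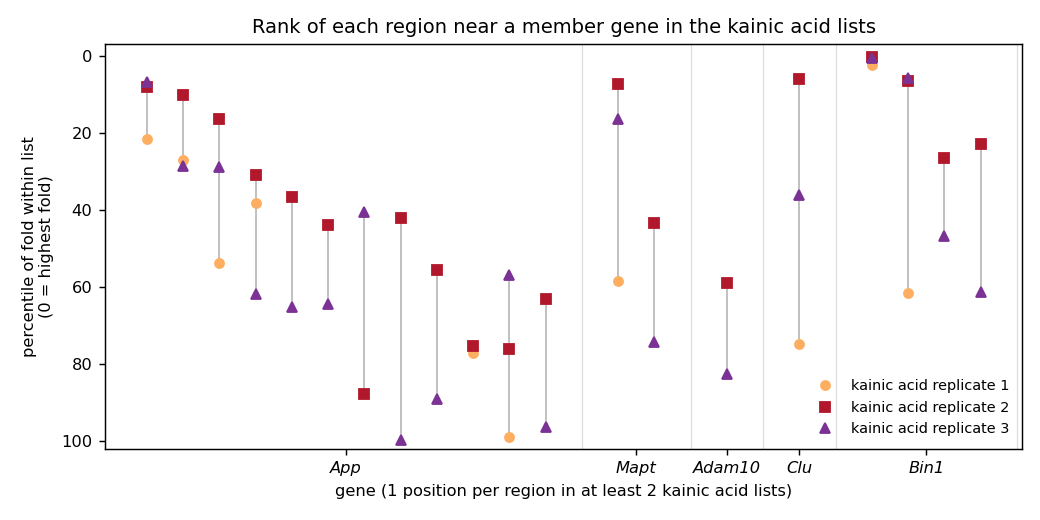
Percentile of the fold within its list (vertical axis, 0 is the highest fold) for each of the 20 shared regions, grouped by gene, with 1 symbol per library and a line joining the libraries. The strongest Bin1 site lies between 0.276 and 2.57 in all 3 libraries, whereas the Clu region runs from 6.15 to 74.8.

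Genes whose numbers of peaks over the 6 lists were most like those of App were sought among the 616 other protein-coding genes with a span within 25% of its own, by the Euclidean distance of log2(number of peaks + 1). The nearest were Srgap3 (distance 0.149), with 7, 26 and 12 peaks in kainic acid replicates 1, 2 and 3, Prkag2 (0.186), with 7, 32 and 13, and Cpeb3 (0.215), with 7, 32 and 12. None of them had a saline peak, which follows largely from the choice, since the saline lists, with no peak at App, entered the distance. In the same group of genes, App included, the median number of peaks was 2, 7 and 3, so App was well above the middle, with more peaks than 91.2%, 93.5% and 91.2% of them.

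Other genes of these pathways, 46 in all, were taken from a list of amyloid, tau and risk genes. Of these, 37 (80.4%) had a region in at least 2 kainic acid lists, against the 40.0% of all protein-coding genes. A region in all 3 lists was near 27 of the 46, against 23.9% of all protein-coding genes. The 46 genes had a median of 1.5 regions and a median span of 64.0 kb. Among those longer than 50 kb the share was 92.0% (23 of 25), and among the shorter ones 66.7% (14 of 21), against 70.1% and 31.2% of all protein-coding genes. A peak of saline replicate 2 lay near 18 of the 46, against 17.0% of all genes. This list was drawn up with earlier results of these data known, and the shares are given without a test.

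By role, the tau kinases and their activators had a region at 9 of 9 genes, led by Fyn, a tyrosine kinase that phosphorylates tau, with 15. The best Fyn region (chromosome 10, 39572382 to 39573161), which lies beyond the upper end of the gene span, had folds of 8.87, 21.9 and 13.4. It had a saline peak in 1 list. Risk genes of endocytosis and adhesion had a region at 7 of 7, led by Sorl1, a sorting receptor of the amyloid precursor, with 16. The precursor homologs and adaptors had one at 5 of 6, all but Apbb1, led by the adaptor Apba2 with 16. The lipid transporters and receptors had one at 5 of 6, all but Abca7, led by the apolipoprotein receptor Lrp8 with 6. The amyloid-degrading proteases had one at 3 of 3, led by Ece1 with 3. In the order given, the groups had median spans of 66.5, 108, 42.9, 56.2 and 88.5 kb. Of all protein-coding genes of 20 to 50 kb, 42.7% had a region. The share was 58.9% at 50 to 100 kb and 76.8% at 100 to 200 kb.

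The remaining groups were the secretases and the microglial genes. Adam9 and Adam17, which can also act as alpha-secretases, had 1 region each. The beta-secretase homolog Bace2 had none. Of the 6 other gamma-secretase genes, 3 had a region, led by the small subunit Psenen with 2, both in all 3 lists. The best Psenen region (chromosome 7, 30559068 to 30560507) lies outside the gene span, below its lower end. Aph1a and Ncstn, which encode other subunits of the complex, had no peak in any list. Of the 6 microglial risk genes, 3 had a region, led by Inpp5d with 3, while Cd33, Plcg2 and Trem2 had no kainic acid peak in any list. Median spans were 18.2 kb for the gamma-secretase genes and 21.7 kb for the microglial genes. Among all protein-coding genes, 26.3% of those up to 20 kb had a region and 42.7% of those of 20 to 50 kb.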

How the data were processed

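The authors' data were 6 peak lists of 10 columns, 1 per library and none pooled. Trim Galore 0.6.4, Bowtie2 2.3.4.3, MACS2, deepTools 3.5.0 and the build mm10 are named in the submitters' processing notes, without roles. Peak names carry a mapping quality of 30, per the file contents. The cutoff, the control used and the MACS2 version are not given in the sources used here. The authors' fold is a ratio on a linear scale, of a peak over its local background, given per library. Whether that background came from the same library or from a control is not known. The −log10 p and −log10 q were deposited per library too, as was the score, 10 times the −log10 q without decimals. Since nothing is scaled across libraries, these values served for ranks and filters inside single lists. No read totals come with the lists, so depth is unknown.

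Gene spans, without exons, and promoter windows came from RefSeq tables of GRCm38.p6, the assembly behind mm10. Windows were listed for 4 of the 8 genes. For the 87 peaks near the genes, the reads at the summit (k) and the local background (λ) were found as the pair that gives both deposited values, taking the fold as (k + 1)/(λ + 1) and p as the upper Poisson tail above k. That form is an assumption, and the largest error in −log10 p was 2.48e-05. Merging, gene counts and the solver were tested on simulated data. Python 3.11.15 with numpy 2.4.6, pandas 2.3.3, scipy 1.17.1 and matplotlib 3.10.9 was used.

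Members and lists were chosen with earlier results of these data known. All 8 genes are named. Of the other pathway genes, those with most regions in each role group are named, and those without a region where 5 or fewer. A result for 1 pathway gene is not reported here. Of regions, the rule names the best of each gene, those in all 3 lists and those with a saline peak. The other regions and single-list peaks given for the 8 genes, the App promoter among them, and Adam9 were added after their values were seen. Alternatives were −log10 q of at least 5 or 10, a reach of 0 or 50 kb, summits in place of peaks, support in all 3 lists, equal numbers of peaks, each library left out, and the replicate block.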

Additional observations from a re-analysis of the deposited data

How the results depend on the processing

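Kainic acid libraries had the higher log10 peak number in each alternative that was computed, by 0.842 when −log10 q had to reach 10 and by 0.987 to 1.38 with one library left out. The exact permutation p was 0.2 without kainic acid replicate 2 and also without kainic acid replicate 3. It was 0.1, the smallest possible, in the other unpaired settings. Groups this small cannot reach a low p, so these values say little about stability. Pairing by number as a replicate block left the value at 1.15, and flipping signs within the 3 pairs gave an exact permutation p = 0.25, the smallest possible. Correlations of deviations in peaks per gene between same-numbered libraries were 0.281, 0.276 and 0.0414. As not every one was above 0.1, the numbers were not treated as pairs. Saline replicate 3 with kainic acid replicate 1 gave 0.282, as high as the same-numbered libraries. With 7 and 2 peaks in saline replicates 1 and 3, these correlations cannot show whether the numbers mark pairs.

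The number of shared regions near the 8 genes was 20 in the report, 7 under the limit of 10 on −log10 q, 9 when all 3 lists were required and 7 with kainic acid lists of equal length. It ran from 9 to 19 when any one of the kainic acid libraries was dropped. The share of the 8 genes with a region was 62.5% in the report's setting, 50.0% in 5 settings with stricter support or fewer peaks, where Adam10 dropped out, and 100% at a reach of 50 kb. At that reach Bace1, Psen2 and Apoe had 2 regions each. The mean share of a kainic acid list near the genes was 0.0698% with −log10 q of at least 10, 0.105% at a reach of 50 kb and 0.0688% with equal numbers of peaks; the alternatives for this share were chosen after seeing the data. For single genes, 26 of 88 counts of regions moved by over 1.5 times, 23 to fewer and 3 to more. The 88 include Bace1, Psen2 and Apoe, whose 0 regions could not fall and counted as unmoved when still 0. The 3 moves to more were theirs, so all 23 moves to fewer came from the 5 genes with regions. Of 45 percentiles of the best region, 4 moved by more than the spread between libraries, all toward lower ranks. All 4 came in settings that removed weaker peaks and ranked the rest again. Ranking within a shorter list tends by itself to raise the percentile of a kept peak. Low pileups, down to 12 reads, limit what can be said of single-list peaks.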
